A study of Mus musculus with 4 samples.

Results

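The 10 genes described here belong to the mTOR pathway and were followed in chromatin-bound RNA of C2C12 myotubes, the fused muscle cells that form from a mouse myoblast line. They were taken by symbol from the deposited count table: the kinase gene Mtor, the subunit genes Rptor and Rictor, and the genes of 7 inhibitors, Deptor, Ddit4, Ddit4l, Sesn1, Sesn2, Sesn3 and Eif4ebp1. All 10 were found among 23282 features, and all 10 passed the filter on low counts that left 13285 tested genes. All myotubes had been deprived of steroids. One group then received vehicle and the other 1 µM dexamethasone, a synthetic agonist of the glucocorticoid receptor, for 2 h, with 2 libraries per group. The labels give 1 cell line, marked as female, and do not say whether the libraries of a group came from separate cultures, so p-values measure the spread between these libraries, which may be technical.

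mTOR is a protein kinase that works in a pair of complexes. In mTORC1, with raptor (Rptor), it drives protein synthesis when amino acids and growth factors are plentiful, and in mTORC2, with rictor (Rictor), it phosphorylates Akt. Several proteins hold this pathway back. DEPTOR binds the kinase directly in both complexes, and REDD1 and REDD2 (Ddit4, Ddit4l) act on mTORC1 through the TSC complex. Sestrins act through the amino acid sensing branch. 4E-BP1 (Eif4ebp1) sits downstream of the kinase, where it blocks the cap-binding factor eIF4E until mTORC1 phosphorylates it. In skeletal muscle, glucocorticoids are known to lower mTORC1 signalling and protein synthesis.

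Total gene counts ran from 19631435 to 88596296 per library. Libraries with the same replicate number were more alike (Pearson's r of log2 CPM across tested genes, 0.981 and 0.989) than libraries of the same group (0.973 and 0.980). CPM here are a gene's counts scaled to the total of its library and by the TMM method. The labelled cell type was checked on 10 myotube genes, all detected, whose summed level was 129400 and 45800 CPM in the vehicle libraries and 124700 and 44720 CPM in the dexamethasone libraries. This sum followed the replicate number, and most of it was Ttn (118100 and 41070 CPM with vehicle, 113400 and 39940 CPM with dexamethasone). The other listed myotube genes were also higher in replicate 1 of each group, Mymk by little (175.8 and 173.3 CPM against 208.3 and 207.9 CPM). The part of this level in the results was not tested. Summed levels of 10 genes of cycling myoblasts, none at 0, were 65.2 and 69.0 CPM with vehicle and 51.8 and 59.2 CPM with dexamethasone; Pax7, a satellite cell gene, was the only one of them lower in both dexamethasone libraries (32.0 and 39.0 CPM against 18.0 and 22.9 CPM). The other 9 had log2 fold changes above 0, 4 of them (Bub1, Ccna2, Aurkb and Plk1) without overlap of the groups. Such higher values without overlap were found in 15.0% of all tested genes, and 6601 of 13285 had log2 fold changes above 0. The 4 genes had 0.685 to 3.97 CPM, with log2 fold changes from 0.09 (Ccna2) to 0.47 (Bub1). The 95% intervals of all 9 included 0. Of 6 fibroblast and adipocyte genes, Lum and Cfd were at 0 in every library, and the sums of the list were 11.4 and 9.36 CPM against 13.2 and 15.3 CPM. Its 2 tested genes stood on opposite sides of 0, Pdgfra at a log2 fold change of 1.04 (SE 0.278) and Dcn at -0.51 (SE 0.242). The part of these cell types in the results was not tested.

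The comparison of dexamethasone with vehicle asks whether the chromatin-bound RNA of these genes differs after 2 h of glucocorticoid. Deptor, Ddit4 and Sesn1 were higher and Sesn3 lower in the dexamethasone libraries, by 3.37-fold, 3.25-fold, 1.80-fold and to 0.537 of the vehicle level. The kinase gene Mtor and the scaffold genes Rptor and Rictor stood at 1.07, 1.06 and 0.975 times the vehicle level. In bulk libraries, fewer cells of a type and less RNA per cell cannot be told apart. By edgeR's quasi-likelihood test with Benjamini-Hochberg adjustment over all tested genes, 0 of the 10 members passed a threshold of 0.05, where 5 of 13285 genes (0.0376%) passed. At an unadjusted p under 0.05 in that test, 4 of 10 members passed (Deptor, Ddit4 and Sesn1 higher, Sesn3 lower), against 5.78% of all tested genes. The members were chosen with earlier results of these data known, so these counts describe them and are no test against all genes. The groups did not overlap, with dexamethasone the higher, in 5 members (Deptor, Ddit4, Sesn1, Eif4ebp1 and Mtor) and in 15.0% of all tested genes. With dexamethasone the lower, this held for Sesn2 and Sesn3 and for 12.9% of all tested genes. Other tests of the same counts called 3 members, Deptor and Ddit4 higher and Sesn3 lower: DESeq2's Wald test, which called 2.18% of genes, and edgeR's likelihood ratio test, which called 2.17%. With every gene of at least 1 count tested, the quasi-likelihood test called Deptor alone among the members and 0.129% of 17880 genes. limma-voom called 0 members and 0.0% of genes, with the same 4 members at an unadjusted p under 0.05.

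**Figure D1:**
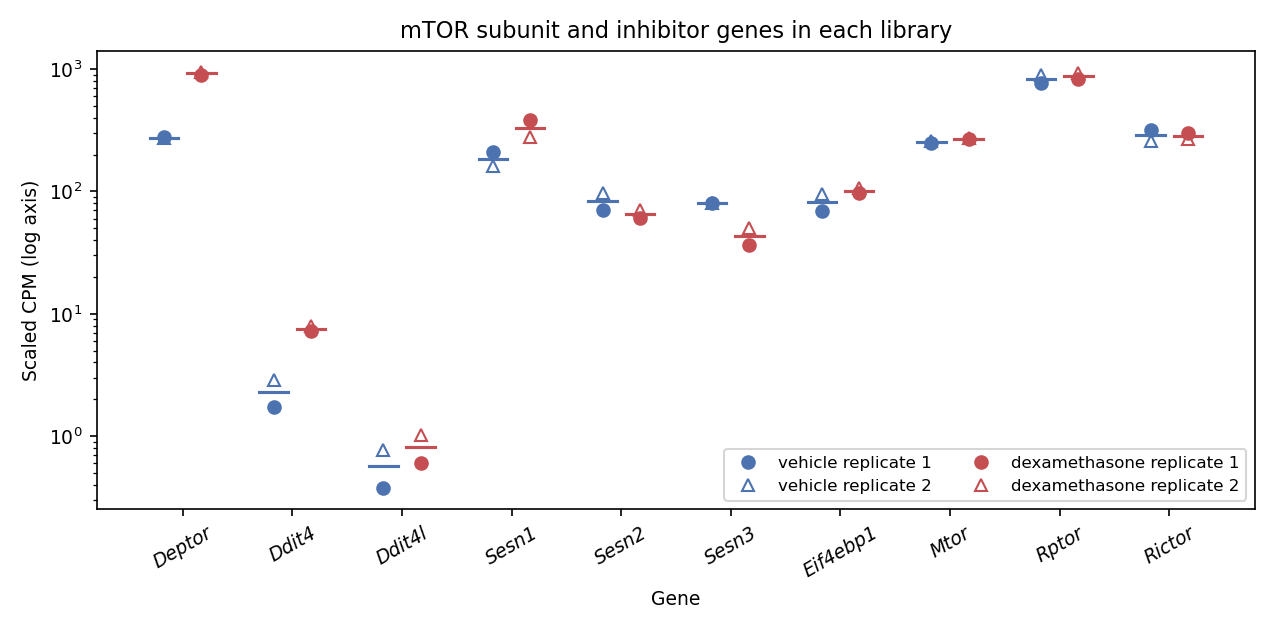
Scaled CPM (log axis) of the 10 genes in each of the 4 libraries; filled circles are replicate 1, open triangles replicate 2, and short lines the mean of each group. The dexamethasone libraries of Deptor sit at 899 and 954 CPM against 279 and 272 CPM with vehicle, while those of Rptor and Rictor overlap the vehicle libraries.

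Deptor encodes the inhibitor that binds mTOR itself. Deptor (ENSMUSG00000022419) had 279 and 272 CPM in the vehicle libraries (5196 and 10315 counts) and 899 and 954 CPM in the dexamethasone libraries (26950 and 89110 counts). The 2 libraries of each group were close to each other and the groups did not overlap. Group means were 275 ± 4.88 CPM with vehicle and 927 ± 39.1 CPM with dexamethasone (SD, n = 2 each). The log2 fold change was 1.75 (SE 0.131, 95% interval 1.41 to 2.10), with an edgeR unadjusted p of 7.84e-05 and an adjusted p of 0.117. By p-value Deptor ranked 8 of the 13285 tested genes, and 105 genes had a larger log2 fold change. Leaving out 1 library gave edgeR adjusted p values of 0.0147 and 0.0216 without dexamethasone replicate 1 or 2, which pass, and 0.113 and 0.0738 without vehicle replicate 1 or 2, which do not, in fits that assume the lone remaining library varies like those of the other group. The log2 fold change stayed between 1.71 and 1.79 whichever library was left out, and over the other alternatives the adjusted p ran from 1.02e-17 to 0.152.

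Deptor overlaps an opposite-strand transcript, Gm9920, over 1361 bases in the GENCODE M21 annotation. Gm9920 had 1.45 and 0.949 CPM with vehicle and 2.70 and 2.79 CPM with dexamethasone, a log2 fold change of 1.22 (SE 0.345). Whether counting used strand is not given in the sources used here, so reads of the overlap cannot be assigned to either gene, and their part in the value of Deptor was not tested.

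Most genes beside Deptor had values near 0. Of the 3 nearest tested protein-coding genes on each side (chromosome 15), Taf2, which encodes a TFIID subunit, had a log2 fold change of 0.06 (SE 0.119), Mtbp 0.10 (SE 0.126) and Mrpl13, a mitochondrial ribosomal protein gene, -0.02 (SE 0.213). Col14a1 was at 0.08 (SE 0.467). Dscc1, at 0.84 (SE 0.430), and Enpp2, at 2.32 (SE 0.914), had higher values in both dexamethasone libraries. They rest on few vehicle counts, 19 and 32 for Dscc1 and 17 and 6 for Enpp2 in replicates 1 and 2. Their 95% intervals (-0.30 to 1.98 and -0.10 to 4.74) include 0.

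By its profile over the 4 libraries, Deptor lay closest to Sgk1, Rubcnl and Klf9. Likeness was the Euclidean distance between log2 CPM centred on each gene's mean, computed over 9238 genes with at least 100 counts in every library, and it was 0.232, 0.235 and 0.237. Sgk1, a kinase gene known to be induced by glucocorticoids, had 25.1 and 21.4 CPM with vehicle and 88.4 and 81.2 CPM with dexamethasone. Klf9, a zinc finger gene also known as a glucocorticoid target, had 22.8 and 20.2 CPM against 69.5 and 62.5 CPM. With 4 libraries this distance describes little beyond the size of the difference and the spread around it.

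The REDD genes encode stress-induced inhibitors that release TSC2 to switch off mTORC1, and Ddit4 is a known glucocorticoid target in muscle. Ddit4 (ENSMUSG00000020108) had 1.72 and 2.87 CPM with vehicle (32 and 109 counts) and 7.21 and 7.91 CPM with dexamethasone (216 and 739 counts). Both dexamethasone libraries stood apart from both vehicle libraries, and their 95% Poisson intervals, which cover counting error only, did not overlap those of the vehicle libraries (1.17 to 2.42 and 2.36 to 3.47 CPM against 6.28 to 8.23 and 7.35 to 8.51 CPM). The log2 fold change was 1.70 (SE 0.319, 95% interval 0.85 to 2.54), with an edgeR unadjusted p of 0.00413 and an adjusted p of 0.261. It ran from 1.40 without vehicle replicate 1 to 2.14 without vehicle replicate 2.

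Its relative Ddit4l (ENSMUSG00000046818) was close to the detection limit. It had 0.376 and 0.764 CPM with vehicle and 0.601 and 1.03 CPM with dexamethasone, from 7, 29, 18 and 96 counts. The groups overlapped, and the log2 fold change of 0.49 (SE 0.537, 95% interval -0.93 to 1.91) leaves room for a difference as large as that of Ddit4. Leaving out 1 library moved it to between 0.03 (dexamethasone replicate 2) and 1.15 (vehicle replicate 2). Both replicate 1 libraries were below the replicate 2 library of their group.

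The promoter of Ddit4 is shown because this gene was higher with dexamethasone and RefSeq gives its start. The 250 bases before the start (GRCm38.p6, chr10:59951771-59952020, minus strand) read, 5′ to 3′, with CCAAT boxes (CCAAT or its complement ATTGG) in capitals:
Ddit4: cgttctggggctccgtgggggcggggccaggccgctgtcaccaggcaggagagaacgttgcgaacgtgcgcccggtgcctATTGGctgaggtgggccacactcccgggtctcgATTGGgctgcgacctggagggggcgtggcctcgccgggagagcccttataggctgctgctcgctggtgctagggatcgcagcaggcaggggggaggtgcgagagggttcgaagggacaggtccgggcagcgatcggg
Windows of 250 bases before and 50 after the start were searched on both strands for 6 motifs: the glucocorticoid receptor palindrome (AGAACA and TGTTCT with any 3 bases between), its single arm AGAACA, the ATF4 element TTGCATCA, the FoxO element GTAAACA, the E-box CACGTG and the CRE TGACGTCA. RefSeq windows matched 8 of the 10 members, all but Deptor and Eif4ebp1, with 9 windows in all. Every palindrome also counts as a single arm. None of the 9 held the palindrome, which stands in 0.00913% of all 32851 windows, or the single arm, which stands in 19.0% of them. None held the ATF4 element (0.895% of all windows), the E-box (7.15%) or the CRE (1.79%), and no match says only that these letters are not in this window.

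Sestrins bind the GATOR2 complex and restrain mTORC1, and they also limit oxidative stress. Values of Sesn1 were higher and those of Sesn2 and Sesn3 lower with dexamethasone, none past the adjusted threshold. Sesn1 (ENSMUSG00000038332), known as a p53 and FoxO target, had 209 and 161 CPM with vehicle and 385 and 279 CPM with dexamethasone. The groups did not overlap, though both replicate 1 libraries were above the replicate 2 library of their group. This was a log2 fold change of 0.85 (SE 0.231, 95% interval 0.24 to 1.46), with an edgeR unadjusted p of 0.0170 and an adjusted p of 0.513. It ran from 0.60 without dexamethasone replicate 1 to 1.06 without dexamethasone replicate 2.

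Sesn3 (ENSMUSG00000032009), the sestrin known as a FoxO target that supports Akt signalling, had 80.4 and 80.9 CPM with vehicle and 36.5 and 50.0 CPM with dexamethasone. Both dexamethasone libraries lay well under the vehicle libraries, which were nearly equal. The difference was a log2 fold change of -0.90 (SE 0.192, 95% interval -1.41 to -0.39), with an edgeR unadjusted p of 0.00691 and an adjusted p of 0.341, and its interval does not meet that of Sesn1. It ran from -1.14 without dexamethasone replicate 2 to -0.69 without dexamethasone replicate 1. The genes closest to Sesn3 in profile were Camk1g, a calmodulin-dependent kinase gene (distance 0.129), Pkia, which encodes an inhibitor of protein kinase A (0.142), and Fam102b (0.155).

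Sesn2 (ENSMUSG00000028893), a leucine-binding sestrin and a known ATF4 target, had 70.8 and 97.6 CPM with vehicle and 61.2 and 70.8 CPM with dexamethasone. The highest dexamethasone library and the lowest vehicle library were equal to 3 digits, so the groups met without crossing. On the log2 scale the difference was -0.35 (SE 0.204, 95% interval -0.89 to 0.19), with an edgeR unadjusted p of 0.151, and it ran from -0.56 without vehicle replicate 1 to -0.10 without vehicle replicate 2. The counts of the 3 sestrin genes together, not corrected for length, came to 360 and 339 CPM with vehicle and 483 and 400 CPM with dexamethasone. Sesn1 held 58.0% and 47.3% of that sum with vehicle and 79.8% and 69.8% with dexamethasone, and Sesn3 held 22.3% and 23.9% against 7.56% and 12.5%.

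The sestrin promoters are shown so that the genes that differed in opposite directions can be set side by side. These are the 250 bases before each RefSeq start on GRCm38.p6, 5′ to 3′, with CCAAT boxes in capitals: Sesn1 at its upstream start (chr10:41810324-41810573, plus strand) and its downstream start (chr10:41887189-41887438, plus strand), Sesn2 (chr4:132510457-132510706, minus strand) and Sesn3 (chr9:14276051-14276300, plus strand).
Sesn1, upstream start: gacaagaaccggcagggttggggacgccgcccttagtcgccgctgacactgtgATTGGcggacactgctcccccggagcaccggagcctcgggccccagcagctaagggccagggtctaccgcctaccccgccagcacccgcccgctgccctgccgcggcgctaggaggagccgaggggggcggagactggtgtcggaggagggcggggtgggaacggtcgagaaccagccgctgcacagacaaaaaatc
Sesn1, downstream start: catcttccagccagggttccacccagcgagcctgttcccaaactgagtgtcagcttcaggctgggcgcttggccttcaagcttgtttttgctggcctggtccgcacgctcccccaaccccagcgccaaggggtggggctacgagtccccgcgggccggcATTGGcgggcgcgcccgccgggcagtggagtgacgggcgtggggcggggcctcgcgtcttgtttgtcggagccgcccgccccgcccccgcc
Sesn2: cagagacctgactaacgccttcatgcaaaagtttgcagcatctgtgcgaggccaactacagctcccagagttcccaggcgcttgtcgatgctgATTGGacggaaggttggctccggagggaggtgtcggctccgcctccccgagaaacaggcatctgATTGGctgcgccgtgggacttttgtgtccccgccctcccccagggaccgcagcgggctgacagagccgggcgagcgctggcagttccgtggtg
Sesn3: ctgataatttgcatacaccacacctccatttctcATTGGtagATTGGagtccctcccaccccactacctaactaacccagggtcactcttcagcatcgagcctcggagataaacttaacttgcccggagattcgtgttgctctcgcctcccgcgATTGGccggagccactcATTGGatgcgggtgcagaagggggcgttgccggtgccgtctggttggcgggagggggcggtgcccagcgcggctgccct
The CCAAT box was searched after the windows had been read. It stood in 7 of the 9 member windows, those of Ddit4, Mtor, Rictor, Sesn1 (both starts), Sesn2 and Sesn3, and in 33.8% of all windows of these 250 bases. Mtor and Sesn3 had 4 each, Ddit4 and Sesn2 2 each, and Rptor and Ddit4l had none. Members with higher, lower and near-equal levels after dexamethasone all held it. The FoxO element was found in 1 of the 9 windows of 300 bases, against 3.65% of all windows: it begins at base 23 of the upstream Sesn1 transcript, the start being base 1, and is shown in capitals, as its complement, in the stretch that follows (chr10:41810588-41810610, plus strand).
Sesn1, FoxO element: ccttctacTGTTTACcagccttt
A match describes the letters of the window and not binding.

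Foxo3, one of the FoxO genes, is among the 3 nearest tested genes on one side of Sesn1 on chromosome 10. It had 202 and 244 CPM with vehicle and 658 and 592 CPM with dexamethasone, a log2 fold change of 1.49 (SE 0.162) with an edgeR adjusted p of 0.123. Between them lies Armc2, with 2.58 and 3.22 CPM against 5.37 and 4.10 CPM and a log2 fold change of 0.70 (SE 0.280, 95% interval -0.04 to 1.44). On the other side, Cep57l1, Ccdc162 and Cd164 had log2 fold changes of 0.15, -0.04 and 0.20. Around Sesn3 on chromosome 9, the 6 nearest tested genes had log2 fold changes between -0.05 (Kdm4d) and 0.23 (Mtmr2), and Sesn3 was the only one of these 7 genes with both dexamethasone libraries below the vehicle libraries.

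**Figure D2:**
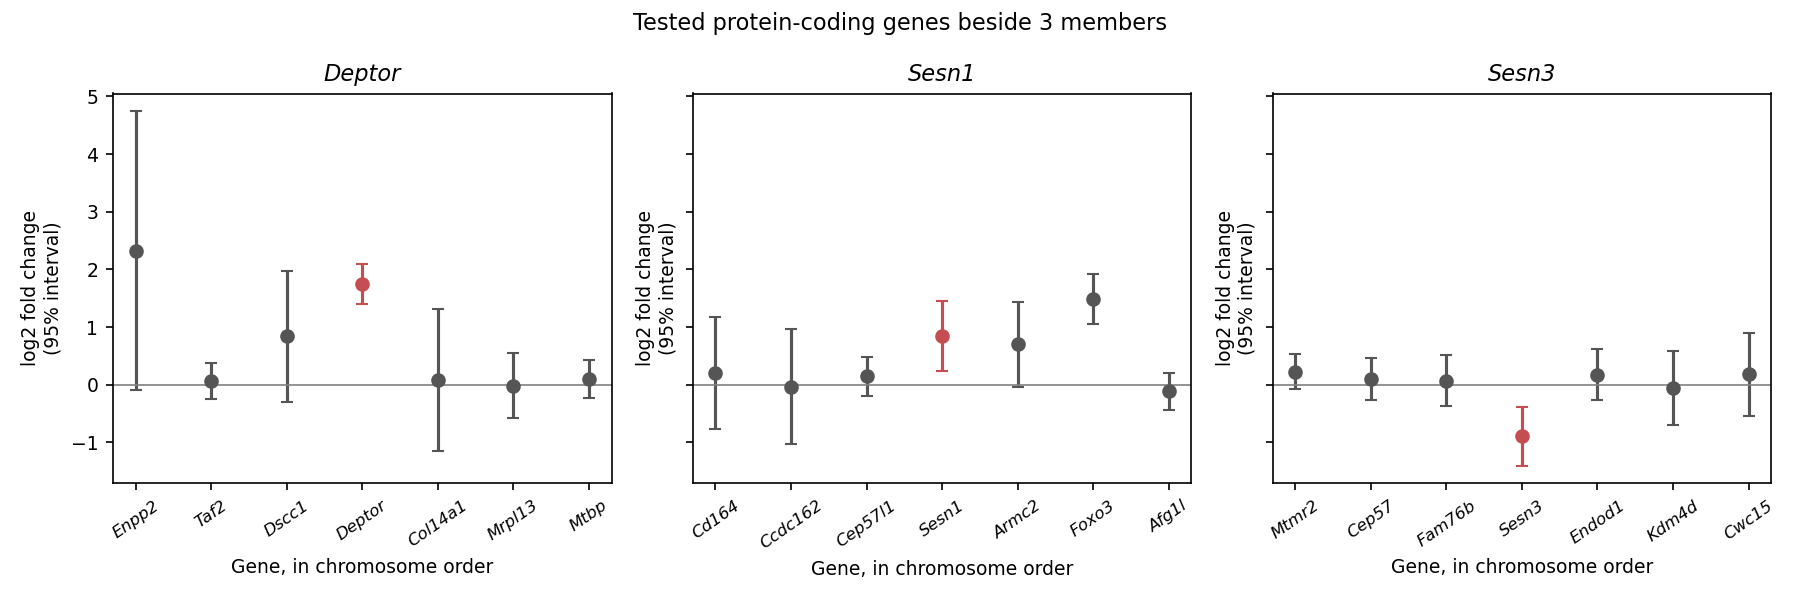
Log2 fold change of dexamethasone over vehicle, with 95% intervals, for Deptor, Sesn1 and Sesn3 (red) and the 3 nearest tested protein-coding genes on each side, in chromosome order. Foxo3, 2 places from Sesn1, is at 1.49, while the neighbours of Sesn3 lie near 0.

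Eif4ebp1 encodes 4E-BP1, the brake on cap-dependent translation that mTORC1 releases. Eif4ebp1 (ENSMUSG00000031490) had 69.6 and 95.2 CPM with vehicle and 97.0 and 106 CPM with dexamethasone. The lower dexamethasone library exceeded the higher vehicle library by a small margin. Its log2 fold change was 0.30 (SE 0.193, 95% interval -0.21 to 0.81), with an edgeR unadjusted p of 0.182, and leaving out 1 library moved it to between 0.10 (vehicle replicate 1) and 0.55 (vehicle replicate 2). The difference between the group means was about the size of the SD of the vehicle libraries (82.4 ± 18.1 against 102 ± 6.54 CPM, SD, n = 2 each).

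The kinase and the scaffold subunits showed small differences, with 95% intervals that included 0. Mtor (ENSMUSG00000028991) had 249 and 258 CPM with vehicle and 268 and 273 CPM with dexamethasone. These groups did not overlap, but the log2 fold change was only 0.09 (SE 0.117, 95% interval -0.22 to 0.40). Rptor (ENSMUSG00000025583), whose product recruits mTORC1 substrates, had 764 and 894 CPM with vehicle and 826 and 931 CPM with dexamethasone. Its log2 fold change was 0.08 (SE 0.158, 95% interval -0.33 to 0.50). Rictor (ENSMUSG00000050310), whose product defines mTORC2, had 320 and 261 CPM with vehicle and 299 and 266 CPM with dexamethasone, a log2 fold change of -0.04 (SE 0.162, 95% interval -0.47 to 0.39). In Rptor both replicate 1 libraries were the lower ones of their group and in Rictor the higher ones, and leaving out vehicle replicate 1 turned the sign of both (-0.03 for Rptor, 0.12 for Rictor), as did leaving out dexamethasone replicate 2 (-0.0059 and 0.05). These upper bounds lie below the lower bounds for Deptor (1.41) and Ddit4 (0.85), while the interval of Sesn1 overlaps all 3.

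**Figure D3:**
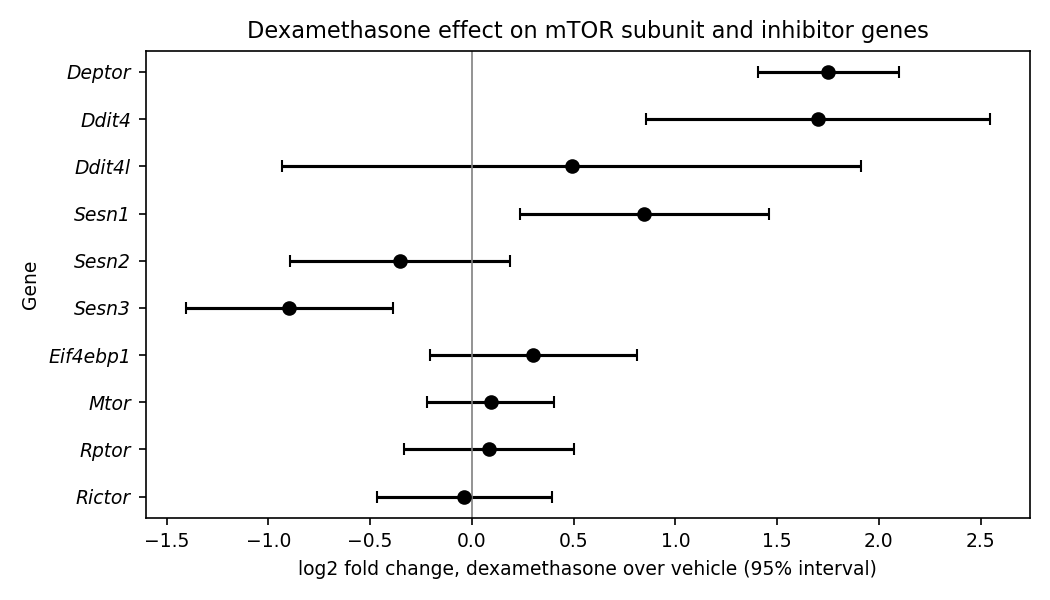
Log2 fold change of dexamethasone over vehicle for each of the 10 genes (points) with 95% intervals from the quasi-likelihood fit (bars). Intervals of Deptor, Ddit4, Sesn1 and Sesn3 leave out 0; that of Ddit4l, the gene with the fewest counts, is the widest at -0.93 to 1.91.

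Levels were compared between genes only per length, and since it is not stated whether introns were counted, both the exon length and the whole span in GENCODE M21 were used. In the vehicle libraries Ddit4l was lowest on either scale (0.195 CPM per kb of exon, 0.0848 per kb of span), then Ddit4 (1.31 and 1.06), then Sesn3 (5.28 and 1.39). Per kb of exon the order from the top was Rptor (61.6), Sesn1 (46.4), Eif4ebp1 (37.5), Deptor (31.0), Mtor (25.1), Sesn2 (24.2) and Rictor (17.1). In it the libraries of Sesn1 and Eif4ebp1 overlapped, as did those of Mtor and Sesn2. Per kb of span the order was Eif4ebp1 (5.04), Sesn2 (4.56), Rictor (3.15), Rptor (2.80), Mtor (2.32), Sesn1 (1.88) and Deptor (1.87), and each of the pairs Eif4ebp1 and Sesn2, Rictor and Rptor, and Sesn1 and Deptor overlapped. In the dexamethasone libraries Deptor was first on either scale, at 104 CPM per kb of exon and 6.31 per kb of span. On the second scale its libraries (6.12 and 6.49) overlapped those of Eif4ebp1 (5.94 and 6.50).

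The other subunits of the complexes were compared next. Of 11 subunit and assembly genes, members included, 0 passed over all genes and 1 (Deptor) had an edgeR unadjusted p under 0.05. Of all tested genes, 0.0376% passed and 5.78% had such a p. The median log2 fold change of the 11 was -0.04, against -0.0016 for all tested genes. Without Deptor, Mtor, Rptor and Rictor, the 7 others (Mlst8, Akt1s1, Mapkap1, Prr5, Prr5l, Tti1 and Telo2) ranged from -0.48 to 0.29. Tti1, a co-chaperone subunit for mTOR assembly, had log2 fold change 0.15 (SE 0.136) and groups that did not overlap. Upstream, the 5 genes of the TSC complex and Rheb, the GTPase that activates mTORC1, had a median of 0.05 and a range of -0.29 (Rhebl1) to 0.18 (Tbc1d7). Tsc1 was at 0.11 (SE 0.123). None of the 5 passed, and 0 had an unadjusted p under 0.05.

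Of 27 genes of amino acid sensing (Rag GTPases, Ragulator, GATOR complexes, folliculin and partners), 26 were tested, 0 passed, and their median log2 fold change was -0.0023. Of all tested genes, 0.0376% passed. An edgeR unadjusted p under 0.05 was found for 1 of the 26 (Fnip2), against 5.78% of all tested genes. Without overlap of the groups, 2 (Fnip2 and Rraga) were higher and 0 lower, against 15.0% and 12.9% of all tested genes. Fnip2, a partner of folliculin, stood at the top of this list. It had 119 and 127 CPM with vehicle and 247 and 187 CPM with dexamethasone, a log2 fold change of 0.82 (SE 0.179) with an edgeR unadjusted p of 0.00737 and an adjusted p of 0.348. The relative Fnip1 was at -0.02 (SE 0.282) and folliculin (Flcn) at -0.19 (SE 0.390). Rraga, a Rag GTPase gene, was at 0.28 (SE 0.219). The gene left out by the filter was Rragb, whose counts were 46 and 0 with vehicle and 0 and 1 with dexamethasone.

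Among 13 genes of the translation machinery downstream of mTORC1, 0 passed, 9 had log2 fold changes above 0 and 4 below, and the median was 0.06. Of all tested genes, 0.0376% passed and 6601 of 13285 had log2 fold changes above 0. Without overlap of the groups, 5 of the 13 were higher (Eif4ebp1, Eif4ebp2, Eif4b, Rps6 and Pdcd4) and 0 lower. These shares were 15.0% and 12.9% of all tested genes. Pdcd4, an inhibitor of the helicase eIF4A that S6 kinase marks for destruction, had 131 and 118 CPM with vehicle and 254 and 210 CPM with dexamethasone. That is a log2 fold change of 0.90 (SE 0.155), edgeR's unadjusted p being 0.00294 and the adjusted p 0.226. Eif4ebp2, the second 4E-BP gene, had 29.5 and 35.2 CPM against 40.7 and 42.6 CPM, a log2 fold change of 0.36 (SE 0.154, unadjusted p 0.0692 by edgeR). The third, Eif4ebp3, was at 0.05 (SE 0.258), the cap-binding factor Eif4e at -0.02 (SE 0.155), and the S6 kinase genes Rps6kb1 and Rps6kb2 at -0.17 (SE 0.154) and -0.09 (SE 0.202). For AMPK, the energy sensor that restrains mTORC1, 8 subunit and LKB1 genes had a median of -0.03. None passed, and 0 had an edgeR unadjusted p under 0.05, against 5.78% of all tested genes. Prkab1 and Prkag1 were lower without overlap of the groups, at -0.28 (SE 0.186) and -0.15 (SE 0.125), and Prkag2 was higher at 0.08 (SE 0.136). Of all tested genes, 12.9% were lower and 15.0% higher without overlap.

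**Figure D4:**
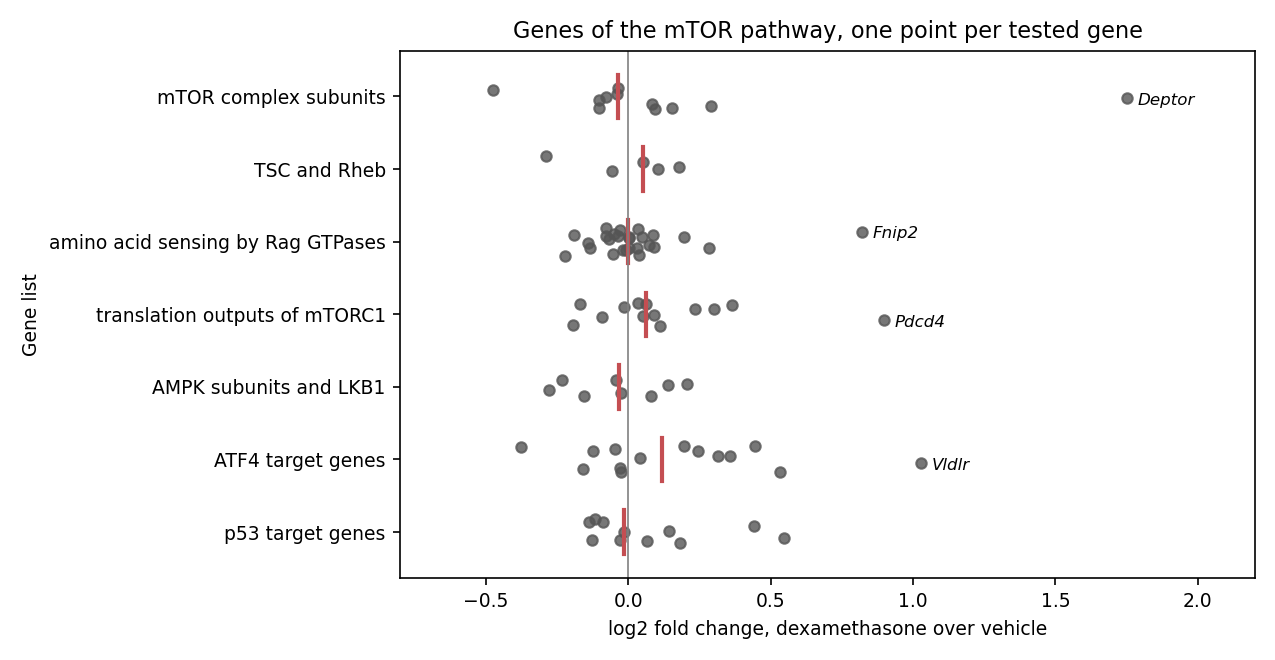
Log2 fold change of dexamethasone over vehicle for every tested gene of 7 lists (grey points; red lines are list medians, between -0.04 and 0.12). Deptor, Fnip2, Pdcd4 and Vldlr are labelled, each the highest of its list.

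Genes known to respond to ATF4 and p53, the stress regulators that control Sesn2, Ddit4 and Sesn1, were set beside them. Of 14 ATF4-related genes, 0 passed and 2 had an edgeR unadjusted p under 0.05, against 5.78% of all tested genes. The median of the 14 was 0.12, which turned to -0.14 without dexamethasone replicate 1. The 2 genes were Vldlr, a lipoprotein receptor gene, at 1.03 (SE 0.214, adjusted p 0.322) and Slc7a11, the cystine transporter gene, at 0.45 (SE 0.150, adjusted p 0.738). Cebpb, a C/EBP transcription factor gene, was at 0.53 (SE 0.203). Atf4 itself was at 0.04 (SE 0.337) and its targets Asns and Trib3 at -0.05 (SE 0.234) and -0.03 (SE 0.182). Others of the list lay further from 0, with groups that overlapped: Mthfd2 at 0.36 (SE 0.212), Phgdh at 0.31 (SE 0.214), Psat1 at 0.195 (SE 0.269) and Chac1 at -0.16 (SE 0.196). Of the 14, 8 had log2 fold changes above 0 and 6 below, against 6601 and 6684 of 13285 tested genes. Ddit3, which encodes CHOP, was at -0.38 (SE 0.240) and Slc7a5, a leucine transporter gene, at -0.12 (SE 0.128). Both were lower without overlap of the groups by a small margin (lowest vehicle against highest dexamethasone library, 53.47 against 53.15 CPM and 197.5 against 195.6 CPM). Of the 14, these 2 were lower and 4 (Vldlr, Cebpb, Slc7a11 and Slc3a2) higher without overlap, against 12.9% and 15.0% of all tested genes. Of 11 p53 target genes, 0 passed or had an unadjusted p under 0.05, and the median was -0.02. Cdkn1a and Mdm2 were at 0.06 (SE 0.173) and -0.03 (SE 0.230), Btg2 at 0.44 (SE 0.235), Aen at 0.15 (SE 0.136) and Polk at -0.13 (SE 0.130). The 11 ranged from -0.14 to 0.55, the highest being Trp53inp1 (SE 0.295), whose groups overlapped. Without overlap, 2 (Btg2 and Aen) were higher and 1 (Polk) lower, against 15.0% and 12.9% of all tested genes.

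The counts hold chromatin-bound RNA. The labels name both a total RNA kit and an mRNA kit, so whether polyadenylated RNA was selected is not known. The counts give no measure of mTOR protein, of its activity or of translation.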

How the data were processed

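Nuclei were isolated, lysed with detergent and washed, and RNA was purified from the chromatin pellet, per the labels' protocols. The authors deposited raw read counts per gene in 1 table. The submitters' processing notes name TopHat2 2.0.13, SAMtools 1.1, HTSeq 0.6.1, DESeq2 1.18.1 and the build mm9, without roles; the annotation, the strand setting and the counting of introns are not given in the sources used here. Of 23333 rows, 51 repeats of a gene with identical counts were used once. Genes were filtered with filterByExpr (minimum count 10, minimum total 15) and tested with edgeR 4.0.16 in R 4.3.3 (TMM, quasi-likelihood, group as the only term, Benjamini-Hochberg over 13285 genes, 2 residual degrees of freedom). Standard errors are the log2 fold change divided by the root of the F statistic, and 95% intervals use the moderated degrees of freedom. Log2 levels behind correlations and distances have a prior count of 2. The scripts were checked on simulated counts.

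Alternatives were other scalings, filters and tests (DESeq2 1.42.0, limma 3.58.1), the replicate number as a block, thinning, and leaving out each library. The members and lists were chosen with earlier results of these data known. The named genes were the 10 members, list genes past the threshold, in each list up to 3 with the largest rise and 3 with the largest fall among genes whose libraries do not overlap, and the 3 closest profiles to the highest and lowest member. Neighbours of Deptor, Sesn1 and Sesn3, Gm9920, the CCAAT box and the list genes named beyond these were chosen after values were seen. Gene order came from RefSeq (GRCm38.p6), promoters from the same build, and lengths from GENCODE M21, matched for 99.5% of tested genes; no coordinates on mm9 are given.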

Additional observations from a re-analysis of the deposited data

How the results depend on the processing

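The quasi-likelihood test called 5 genes higher and 0 lower. These counts became 236 and 53 in DESeq2's Wald test and 243 and 45 in edgeR's likelihood ratio test. Without the filter on low counts 23 genes were higher, and limma-voom called 0 (771 at an unadjusted p under 0.05). Members called were 3 under each of the first pair (Deptor, Ddit4, Sesn3), 1 (Deptor) without the filter, and 0 under limma-voom, the other scalings, the stricter filter and thinning. Fnip2, Pdcd4 and Vldlr were also called by the Wald and likelihood ratio tests. A fit with a replicate block called 913 genes as higher and 768 as lower (12.7% of genes), and 5 members: Deptor, Ddit4 and Sesn1 higher, Sesn2 and Sesn3 lower. It also called Fnip2, Pdcd4, Vldlr, Eif4ebp2, Cebpb, Slc7a11 and Btg2 higher and Ddit3 lower. Nothing in the labels ties equal replicate numbers to one batch or day; differences between replicates 1 and 2 correlated between the groups across genes (r = 0.734). The cause of these shifts was not tested. Leaving out each library in turn gave 4 to 63 genes higher, 0 to 8 lower and 0 to 1 members called. In those fits Rptor ran from -0.0261 to 0.201 and Rictor from -0.177 to 0.118; the other 8 members kept their sign in every alternative that tested them. Of the member values under the other alternatives, 87 kept their side of the threshold and 12 became called. Medians of the lists, except translation outputs and AMPK, changed sign in at least 1 of the fits without a library. Ddit4l, with as few as 7 counts, was left out by the stricter filter.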
